A study of Rattus norvegicus with 9 samples.

Results

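The mitochondrial ribosomal protein genes, named Mrpl for the large and Mrps for the small ribosomal subunit, were followed in cultured heart muscle cells of newborn rats. Genes were taken as members if their symbol began with Mrpl or Mrps and a digit and if at least 10 reads were counted in 3 or more samples. Of 69 such rows, 68 qualified, out of 17327 rows in the table. The row left out was Mrpl36, with a total of 1 read over the 9 samples. The cells were primary neonatal ventricular myocytes (NRVMs), treated for 48 hours with 50 µM phenylephrine, an alpha-adrenergic agonist, with 10 nM of the growth factor IGF1, or with vehicle, with 3 samples in each group. No strain, genotype or sex was given in the labels, and the groups differed by treatment alone. The labels do not say whether samples came from separate cultures. The p-values therefore reflect sample-to-sample spread that could be technical.

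Mitochondria carry their own ribosomes, which translate the few proteins encoded in mitochondrial DNA, all of them subunits of the respiratory chain and ATP synthase. The ribosomal RNAs of these ribosomes come from mitochondrial DNA, whereas every protein subunit is encoded in the nucleus, made in the cytosol and imported. Some subunits descend from bacterial ribosomal proteins and others are found only in mitochondria. Heart muscle is rich in mitochondria, and inherited defects of several of these subunits cause cardiomyopathy in humans.

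The members comprised 42 proteins of the large subunit, 25 of the small subunit and Mrps36. The last is now known as Kgd4, a component of the 2-oxoglutarate dehydrogenase complex. Mrps18a and Mrps30 were counted with the large subunit, where their proteins sit despite their names. By the mitoribosome nomenclature, 24 large subunit proteins were classed as having a bacterial homologue and 18 as specific to mitochondria. Of the small subunit proteins, 15 were classed with a bacterial homologue and 10 as specific to mitochondria. Mrps18a and Mrps18b were classed as specific to mitochondria, although both are relatives of bacterial ribosomal protein S18.

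Upstream sequences are shown for members whose behaviour differed, as read from RefSeq's table for the rat build GRCr8. The first pair, Mrps18a and Mrpl17, had large rises with phenylephrine; Mrpl44 fell with phenylephrine, and Mrpl52 moved in opposite directions under the 2 treatments. Each line gives the 150 bases before the annotated start, 5′ to 3′ along the gene's strand, with capitals for matches to the short words defined after the sequences.
Mrps18a (chr9:22367381-22367530, minus strand): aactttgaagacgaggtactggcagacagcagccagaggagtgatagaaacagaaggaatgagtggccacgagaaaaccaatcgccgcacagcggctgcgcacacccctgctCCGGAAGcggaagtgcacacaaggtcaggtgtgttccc
Mrpl17 (chr1:169575700-169575849, minus strand): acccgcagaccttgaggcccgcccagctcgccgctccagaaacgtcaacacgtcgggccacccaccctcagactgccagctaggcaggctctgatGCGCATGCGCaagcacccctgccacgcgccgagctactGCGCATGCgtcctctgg
Mrpl44 (chr9:88554900-88555049, plus strand): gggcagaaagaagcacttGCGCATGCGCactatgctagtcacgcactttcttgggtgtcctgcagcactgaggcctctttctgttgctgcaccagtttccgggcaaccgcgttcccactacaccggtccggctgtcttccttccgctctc
Mrpl52 (chr15:31852786-31852935, plus strand): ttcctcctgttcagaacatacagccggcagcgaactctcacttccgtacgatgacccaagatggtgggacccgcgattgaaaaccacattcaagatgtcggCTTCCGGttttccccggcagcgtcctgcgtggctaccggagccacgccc
A promoter window, from 250 bases before to 50 bases after the start, was held for 53 of the 68 members. The words were GCGCATGC for NRF1, CCGGAAG for ETS factors such as GABP, AAGATGGCG for YY1 and CACGTG for E-box factors such as Myc. Both strands were searched, and NRF1 words were allowed to overlap each other. NRF1 words were present in 5 of 53 member windows (9.43%), against 2.77% of 27457 genes with a window and 3.32% of the 18999 protein-coding genes. ETS words were present in 17 windows (32.1%), against 9.63% of genes and 11.6% of protein-coding genes. YY1 words were present in 8 windows (15.1%), against 1.99% and 2.33%, and E-box words in 5 (9.43%), against 7.08% and 7.69%. At least 1 of the 4 words was present in 27 member windows (50.9%), against 19.0% of genes and 21.9% of protein-coding genes. The members had passed a filter on reads, but the comparison sets were not limited to genes expressed in these cells. Whether the gaps are particular to the members was therefore not tested. Mrps18a also held a YY1 word at bases 1 to 9 after its start, and Mrpl52 a second ETS word at bases 2 to 8, which lie past the stretch shown. A match is a description of the letters and not a bound site, and no binding was measured here.

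Members with a YY1 word had a median log2 fold change against vehicle of 0.376 with phenylephrine and 0.433 with IGF1, over 8 genes. The 45 members with a window but no such word had medians of 0.172 and 0.193. For the ETS word the medians were 0.216 with phenylephrine over 17 genes, against 0.174 over 36 without it. With IGF1 they were 0.121 with the word and 0.308 without it. For the NRF1 word, over 5 genes, they were 0.124 with phenylephrine, against 0.182 over 48 without it, and 0.148 with IGF1, against 0.232. For the E-box, also over 5 genes, they were 0.302 with phenylephrine, against 0.174 over 48 without it, and 0.083 with IGF1, against 0.248. These medians are descriptions without a test, and the treatments share the vehicle samples.

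Mrps11 of the small subunit and Mrpl46 of the large subunit are transcribed away from each other, with 233 bases between their annotated starts. The pair was chosen after its values were seen, as a case in which 2 members share an upstream region. The segment is printed along the strand of Mrps11, and no word was present between the starts. Mrpl46 held a YY1 word at bases 25 to 33 after its start, outside the segment shown.
Mrps11 and Mrpl46 (chr1:142117031-142117263, plus strand): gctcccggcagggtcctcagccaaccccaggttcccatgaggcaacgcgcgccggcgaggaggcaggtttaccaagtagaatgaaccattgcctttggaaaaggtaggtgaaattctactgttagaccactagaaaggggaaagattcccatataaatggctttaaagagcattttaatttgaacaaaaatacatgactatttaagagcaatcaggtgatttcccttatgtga
Mrps11 had a log2 fold change of 0.17 with phenylephrine (edgeR's quasi-likelihood test, Benjamini-Hochberg adjusted p = 0.032) and of 0.34 with IGF1 (adjusted p = 0.0004). With scaling by library size only, the phenylephrine value was -0.02 and did not pass (adjusted p = 0.79). Mrpl46 had 0.15 with phenylephrine, which did not pass the test (edgeR adjusted p = 0.11, and 0.039 without IGF1 replicate 1), and 0.31 with IGF1 (adjusted p = 0.004).

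Total counts per sample were 31274396 to 48505265, so that 1 CPM (reads scaled to library size and TMM factors) rested on 29.1 to 51.6 reads. IGF1 replicate 1 stood apart. Over genes, its chi-square per degree of freedom was 85.1 and 82.4 against the other IGF1 samples, against 2.97 to 7.43 for the other pairs within a group. Over the members alone the same measure was 5.94 and 5.78, against 2.11 to 3.87. The counts over all members and some gene values are therefore given with and without this sample. Values without such a remark include it. All 10 cardiomyocyte markers had reads in the data. Their summed level was 73877 to 74959 CPM with phenylephrine, 54979 to 77113 CPM with IGF1 and 48652 to 52382 CPM with vehicle. By edgeR, 7 of them were higher and 3 lower with phenylephrine than with vehicle, and 6 higher and 1 lower with IGF1. Of all genes tested, 27.9% were higher and 28.9% lower with phenylephrine, and 24.7% and 23.4% with IGF1. All 6 markers of dividing cells, such as Mki67 and Top2a, were lower with phenylephrine and higher with IGF1 than with vehicle by the same test. Their summed level was 227 to 251 CPM with phenylephrine, 825 to 974 CPM with IGF1 and 328 to 409 CPM with vehicle, and none was at 0. The sum of 8 fibroblast markers was 4657 to 4751 CPM with phenylephrine, 5896 to 6807 CPM with IGF1 and 5019 to 6002 CPM with vehicle. Smooth muscle and pericyte markers summed to 2706 to 2766, 1626 to 2219 and 1823 to 1917 CPM in the same order, and endothelial markers to 44.2 to 56.3, 23.7 to 30.6 and 63.8 to 73.5 CPM. Of the 7 fibroblast markers tested by edgeR, 1 was higher and 4 lower with phenylephrine, and 3 were higher and 1 lower with IGF1. Mean Col3a1 was 2108 CPM with IGF1 and 1438 CPM with vehicle, whereas Col1a1 was at 3360 and 3460 CPM. Of 7 smooth muscle and pericyte markers, 4 were higher and 1 lower with phenylephrine, and 2 were lower with IGF1. Of 7 endothelial markers, 1 was lower with phenylephrine and 4 with IGF1. The part of these cell markers in the results was not tested. In bulk RNA, fewer cells of a type and less RNA per cell cannot be told apart.

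The summed level of the 68 members was 3672, 3657 and 3620 CPM with phenylephrine, 4150, 3604 and 3705 CPM with IGF1, and 3110, 3184 and 3274 CPM with vehicle. All samples of both treatments lay above all vehicle samples on this scale. The means were 3650 ± 26.9 CPM with phenylephrine, 3820 ± 291 CPM with IGF1 and 3189 ± 82.1 CPM with vehicle (SD, n = 3 each). The large subunit summed to 2379 ± 21.9 CPM with phenylephrine, 2476 ± 188 CPM with IGF1 and 2073 ± 56.0 CPM with vehicle. The small subunit summed to 1186 ± 7.26, 1232 ± 91.3 and 1038 ± 21.7 CPM in the same order. As a share of all counted reads, which uses no TMM factor, the members held 0.342%, 0.340% and 0.339% with phenylephrine, 0.394%, 0.373% and 0.383% with IGF1, and 0.335%, 0.337% and 0.348% with vehicle. By this share the phenylephrine and vehicle samples overlapped, whereas every IGF1 sample lay above every vehicle sample. The 2 scales differ by the TMM factors, which were 0.9306 to 0.9356 for the phenylephrine samples, 0.9499, 1.036 and 1.033 for the IGF1 samples, and 1.059 to 1.077 for the vehicle samples.

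**Figure D1:**
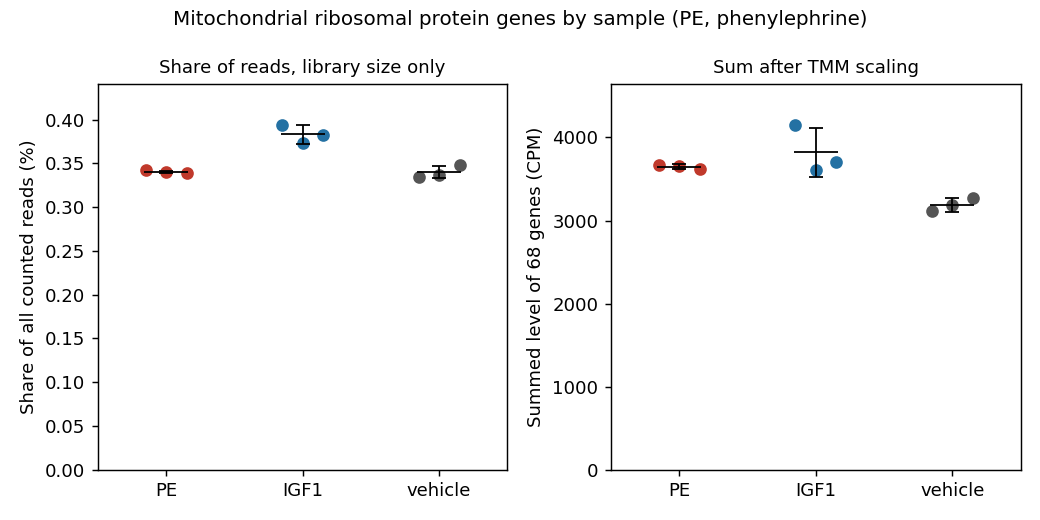
Share of all counted reads (left, percent, library size only) and summed level (right, TMM-scaled CPM) of the 68 mitochondrial ribosomal protein genes in each sample, by treatment, with bars for the mean ± SD of 3 samples. On the left, phenylephrine and vehicle have the same mean of 0.340% and IGF1 lies higher; on the right, both treatments lie above vehicle.

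With phenylephrine, 35 of the 68 members were higher than with vehicle (51.5%) and 3 were lower (4.41%), against 27.9% higher and 28.9% lower of all 11873 genes tested, whereas with scaling by library size only 16 were higher and 18 lower. The other 30 did not pass the test. The median log2 fold change of the members was 0.174 (range -0.239 to 0.749), and it was -0.020 with scaling by library size only, where the median of all genes was -0.223 in place of -0.029. Relative to the median of all genes, the members' median was 0.203 higher under both scalings. A change of scaling shifts all genes by nearly the same amount, so this sameness is no separate check. With library size alone, 14.7% of all genes were higher and 48.0% lower. Of the 35 members called higher, 16 were also called higher under that scaling. Without IGF1 replicate 1, which enters the shared estimate of spread, 46 members were higher and 5 lower, against 31.2% and 32.2% of 12030 genes, and all 35 were among the 46.

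Mrps18a had the largest rise with phenylephrine. It encodes a large subunit protein related to bacterial ribosomal protein S18. Mrps18b and Mrps18c encode other relatives of S18, which sit in the small subunit. Its level was 76.9, 78.4 and 78.9 CPM with phenylephrine, against 46.6, 45.9 and 46.9 CPM with vehicle. The groups did not overlap, and the 3 samples of each lay close together. The rise was 1.68-fold (log2 0.75, SE 0.07, edgeR adjusted p = 6.5e-07).

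Mrpl38, a mitochondria-specific protein of the central protuberance of the large subunit, had 55.6, 54.3 and 55.0 CPM with phenylephrine, against 36.2, 35.7 and 36.1 CPM with vehicle. Every phenylephrine sample lay above every vehicle sample (log2 0.61, SE 0.07, edgeR adjusted p = 5.9e-06). Mrpl49, another mitochondria-specific large subunit protein, had 29.3, 33.3 and 28.1 CPM with phenylephrine, against 17.6, 20.0 and 22.0 CPM with vehicle. Its groups did not overlap (log2 0.61, SE 0.09, edgeR adjusted p = 2.6e-05). The gene overlaps Syvn1 in RefSeq, and the sources used here do not state whether reads were counted by strand, so its value is uncertain. Mrpl17, the homologue of bacterial L17, had 178, 166 and 173 CPM with phenylephrine, against 115, 112 and 118 CPM with vehicle. These groups were separated by a wide gap (log2 0.58, SE 0.07, edgeR adjusted p = 5e-06). RefSeq names 2 pseudogenes for Mrpl17, whose reads the counting could have split.

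The next members by size of rise were Mrps10, Mrps27, Mrpl37 and Mrpl55, with log2 fold changes of 0.49, 0.49, 0.44 and 0.43 by edgeR (adjusted p = 0.00026, 3.6e-05, 0.00048 and 0.00046). Mrps10 is a homologue of a bacterial small subunit protein, and Mrps27 is a pentatricopeptide repeat protein of the small subunit. Mrpl37 overlaps Ssbp3 and Mrpl55 overlaps Guk1 in RefSeq, which leaves their values uncertain in the same way as that of Mrpl49. Mrps10 and Mrpl37 each have 1 named pseudogene. All 8 members named here as higher with phenylephrine were also called higher with scaling by library size only.

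Of the 3 members that fell with phenylephrine, Mrps26 of the small subunit had 25.7, 26.1 and 27.1 CPM with phenylephrine, against 30.1, 29.8 and 33.1 CPM with vehicle (log2 -0.24, SE 0.06, edgeR adjusted p = 0.0036). Mrpl34, a homologue of a bacterial large subunit protein, had 30.9, 29.8 and 28.7 CPM with phenylephrine, against 34.9 CPM in each vehicle sample (log2 -0.23, SE 0.06, edgeR adjusted p = 0.006). Mrpl44 had 36.8, 32.9 and 36.1 CPM with phenylephrine, against 42.1, 41.3 and 40.6 CPM with vehicle (log2 -0.23, SE 0.05, edgeR adjusted p = 0.0022). In each of the 3, every phenylephrine sample lay below every vehicle sample. Mrpl44 is related to ribonuclease III, and mutations in the human gene cause cardiomyopathy.

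With IGF1, 41 members were higher than with vehicle (60.3%) and 1 was lower (1.47%), against 24.7% higher and 23.4% lower of all genes tested. The remaining 26 did not pass the test. The median log2 fold change of the members was 0.226 (range -0.294 to 0.595), against -0.002 for all genes. Without IGF1 replicate 1, 42 members were higher and 3 lower, against 27.4% and 26.6% of all genes, with a median of 0.196. All 41 members called higher were among the 42. With scaling by library size only, 35 were higher and 3 lower, against 17.1% and 30.4% of all genes, and the median was 0.140.

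Mrps22, a mitochondria-specific small subunit protein whose human gene is linked to cardiomyopathy, had 68.0, 57.7 and 57.0 CPM with IGF1, against 37.5, 40.2 and 43.0 CPM with vehicle. All IGF1 samples lay above the vehicle samples, and replicate 1 was the highest (log2 0.60, SE 0.07, edgeR adjusted p = 4.5e-06). Without that replicate the log2 fold change was 0.51 (edgeR adjusted p = 1.1e-11). Mrpl50, a mitochondria-specific large subunit protein, had 58.0, 55.1 and 57.4 CPM with IGF1, against 36.7, 37.6 and 38.7 CPM with vehicle. Here replicate 1 lay with the other IGF1 samples, and the groups were far apart (log2 0.59, SE 0.04, edgeR adjusted p = 5.6e-08, and 0.58 without replicate 1).

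Mrps16, a small subunit protein with a bacterial homologue, had 61.5, 55.3 and 56.6 CPM with IGF1, against 38.4, 38.3 and 39.6 CPM with vehicle. The groups did not overlap (log2 0.57, SE 0.05, edgeR adjusted p = 2.9e-07, and 0.53 without IGF1 replicate 1). Mrpl49 had 30.7, 27.9 and 29.7 CPM with IGF1, against the vehicle values already given, again without overlap (log2 0.57, SE 0.08, edgeR adjusted p = 6.1e-05, and 0.54 without IGF1 replicate 1). Mrpl42, Mrpl12, Mrpl35 and Mrps36 followed, with log2 fold changes of 0.53, 0.53, 0.52 and 0.51 by edgeR (adjusted p = 3.4e-06, 0.00068, 2.6e-06 and 1.8e-05). Without IGF1 replicate 1 these were 0.49, 0.40, 0.46 and 0.43, and all 4 passed the test. RefSeq names 2 pseudogenes each for Mrpl42 and Mrps16 and 3 for Mrps36, whose reads the counting could have split.

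Mrpl52, a mitochondria-specific large subunit protein, was the 1 member that fell with IGF1 by this test. It had 55.4, 51.3 and 51.5 CPM with IGF1, against 66.6, 61.3 and 65.8 CPM with vehicle. All IGF1 samples lay below all vehicle samples (log2 -0.29, SE 0.05, edgeR adjusted p = 0.00036, and -0.33 without IGF1 replicate 1). The additional members called lower without that replicate were Mrpl34 (log2 -0.18, edgeR adjusted p = 0.0056) and Mrps24 (-0.15, 0.015), which did not pass with all samples.

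**Figure D2:**
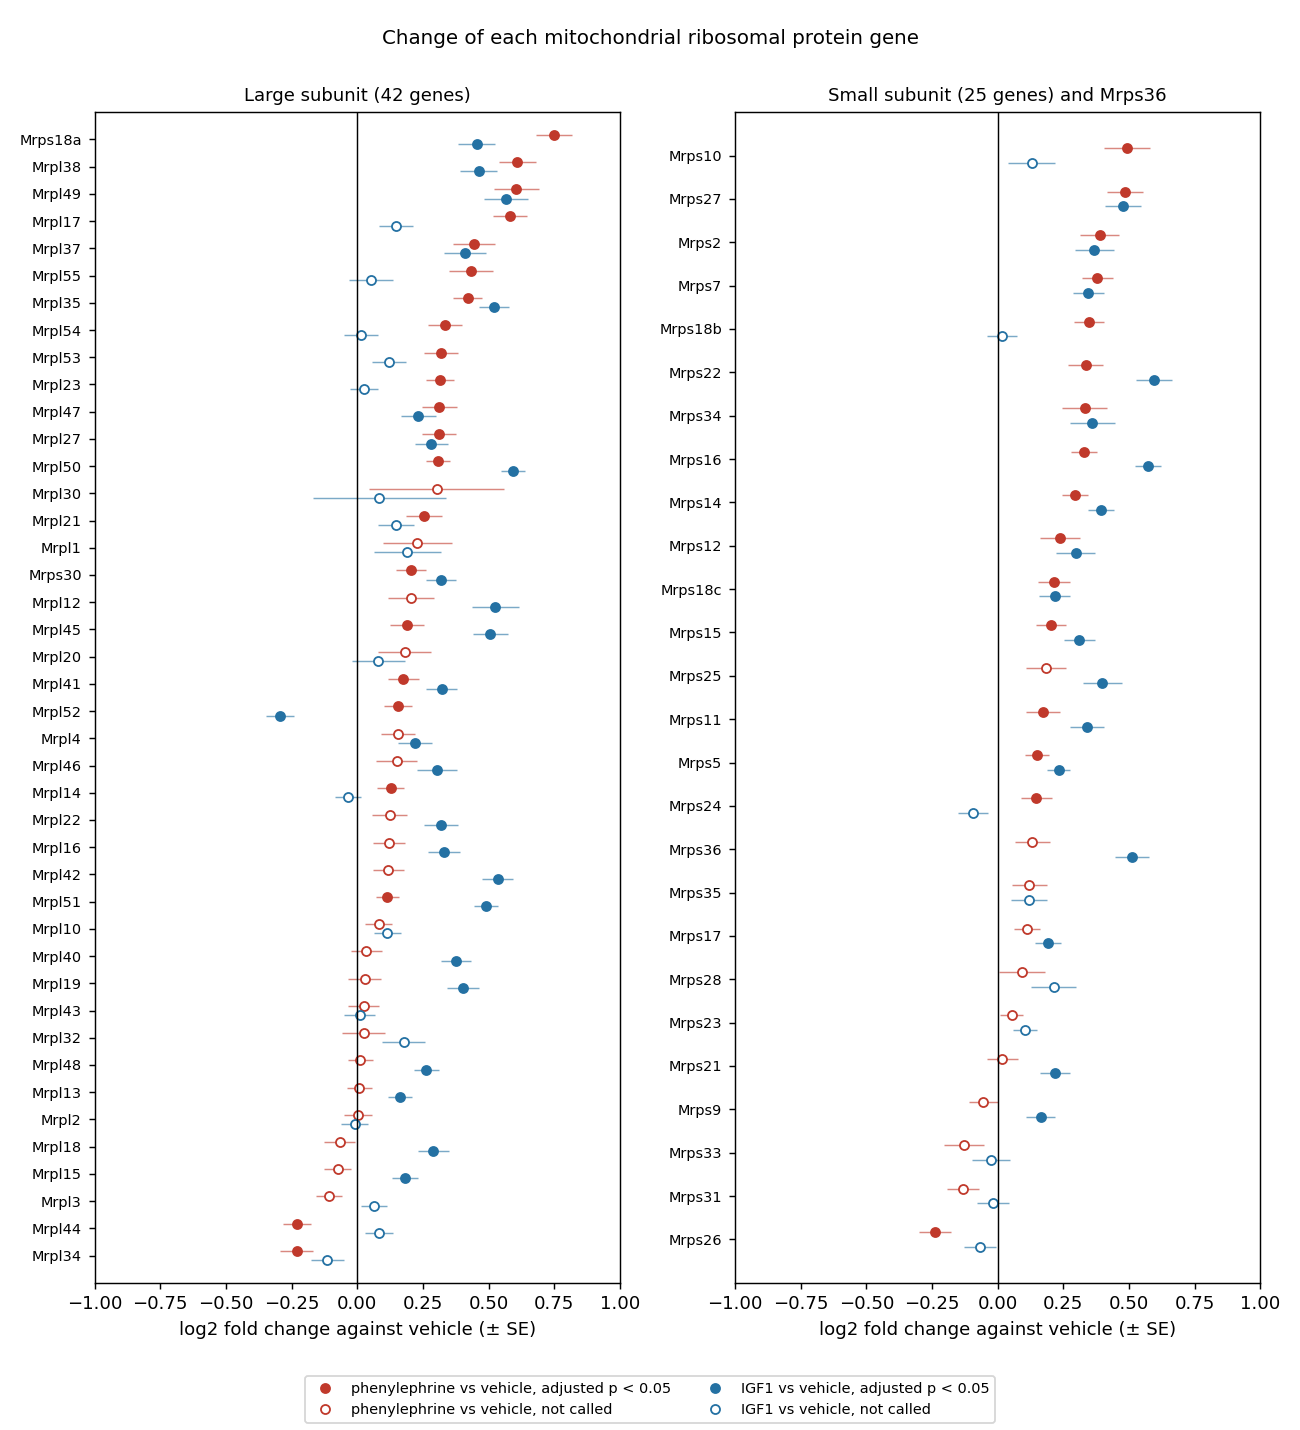
Log2 fold change (± SE, edgeR over all 9 samples) of each of the 68 genes against vehicle for phenylephrine (red, upper point of each row) and IGF1 (blue, lower point), in the large subunit (left) and the small subunit with Mrps36 (right). Most points lie right of 0, with 35 filled phenylephrine points higher and 3 lower, and 41 IGF1 points higher and 1 lower; with scaling by library size only, the phenylephrine counts are 16 higher and 18 lower.

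Phenylephrine was also compared directly with IGF1, since a call under 1 treatment alone does not show that the treatments differ. Of the 68 members, 11 were higher with phenylephrine than with IGF1 (16.2%) and 24 were lower (35.3%), against 27.1% higher and 27.1% lower of all genes. The median log2 fold change was -0.090 (range -0.415 to 0.451). Without IGF1 replicate 1, 17 were higher and 23 lower, against 30.4% and 30.2% of all genes, and the median was -0.047. With scaling by library size only, 9 were higher and 40 lower, against 18.0% and 36.8% of all genes, and the median was -0.199. Of the 24 members called lower, 23 were also lower without IGF1 replicate 1 and all 24 under library size scaling.

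Mrpl52 had the largest difference in favour of phenylephrine, with 75.1, 73.5 and 67.4 CPM with phenylephrine, against the 51.3 to 55.4 CPM with IGF1. The groups did not overlap (log2 0.45, SE 0.05, edgeR adjusted p = 5.5e-06, and 0.49 without IGF1 replicate 1). Against vehicle, Mrpl52 was higher with phenylephrine (log2 0.16, edgeR adjusted p = 0.021), and this value was -0.04 with scaling by library size only, which did not pass the test (adjusted p = 0.55). Mrpl17 had the 166 to 178 CPM given for phenylephrine, against 145, 118 and 120 CPM with IGF1 (log2 0.44, SE 0.07, edgeR adjusted p = 7.4e-05). Its IGF1 replicate 1 lay nearest to the phenylephrine samples, without reaching them, and the difference was 0.53 without it. Mrpl55 had 32.1, 36.5 and 32.9 CPM with phenylephrine, against 29.8, 23.1 and 25.5 CPM with IGF1 (log2 0.38, SE 0.08, edgeR adjusted p = 0.0014). Mrps10 had 20.9 CPM in each phenylephrine sample, against 18.8, 14.9 and 15.2 CPM with IGF1 (log2 0.36, SE 0.09, edgeR adjusted p = 0.0031). Neither of these 2 genes showed overlap between the groups, and in both the first IGF1 replicate was the highest of its group. Mrps18b, Mrpl54, Mrps18a and Mrpl23 were also higher with phenylephrine than with IGF1, with log2 fold changes of 0.33, 0.32, 0.29 and 0.29.

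Mrpl42 had the largest difference in favour of IGF1. It had 40.7, 40.7 and 39.9 CPM with phenylephrine, against 57.3, 50.0 and 54.6 CPM with IGF1 (log2 -0.42, SE 0.06, edgeR adjusted p = 3.3e-05). Mrps36 had 88.3, 82.4 and 85.9 CPM with phenylephrine, against 123, 101 and 109 CPM with IGF1 (log2 -0.38, SE 0.07, edgeR adjusted p = 0.00021). Both genes had every phenylephrine sample below every IGF1 sample. Mrpl51, of the large subunit, had 62.5, 65.6 and 65.3 CPM with phenylephrine, against 86.5, 81.9 and 82.7 CPM with IGF1 (log2 -0.38, SE 0.04, edgeR adjusted p = 5.7e-06). Mrpl19, a homologue of bacterial L19, had 29.7, 27.8 and 27.9 CPM with phenylephrine, against 39.3, 35.1 and 36.4 CPM with IGF1 (log2 -0.38, SE 0.06, edgeR adjusted p = 0.00012). These groups were likewise separate. The other members named by size of fall were Mrpl18, Mrpl40, Mrpl12 and Mrpl45, with log2 fold changes of -0.36, -0.34, -0.32 and -0.32. Without IGF1 replicate 1 these were smaller, at -0.30, -0.32, -0.19 and -0.24. For Mrpl42, Mrps36, Mrpl51 and Mrpl19 the values without it were -0.37, -0.30, -0.35 and -0.33. Each was still called lower.

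**Figure D3:**
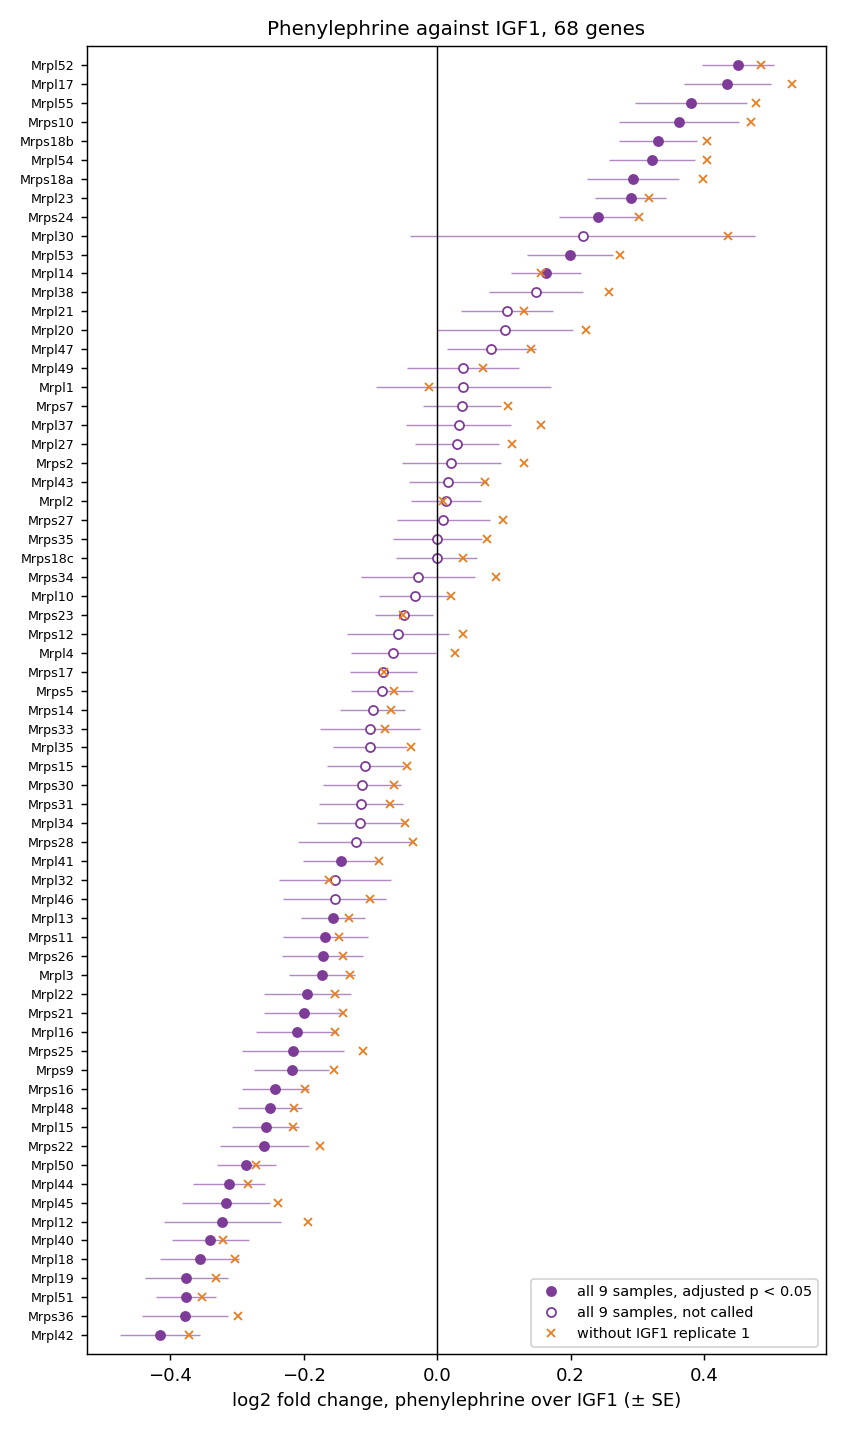
Log2 fold change (± SE) of phenylephrine over IGF1 for each of the 68 genes, sorted by size, with filled circles for adjusted p below 0.05 and crosses for the value without IGF1 replicate 1. The points run from -0.415 for Mrpl42 at the bottom to 0.451 for Mrpl52 at the top, with 11 filled points right of 0 and 24 left of it; with scaling by library size only, 9 are higher and 40 lower.

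Taking the mean of each group, IGF1 had the highest level for 39 members, phenylephrine for 25 and vehicle for 4. Vehicle had the lowest level for 55 members, phenylephrine for 9 and IGF1 for 4. With scaling by library size only, IGF1 was highest for 46 members, phenylephrine for 10 and vehicle for 12, and phenylephrine was lowest for 35, IGF1 for 7 and vehicle for 26. Such counts were not made over all genes, so they show nothing particular to the members. By subunit, 20 of 42 large subunit members were higher and 2 lower with phenylephrine (median log2 0.166), and 24 were higher and 1 lower with IGF1 (median 0.226). Of the 25 small subunit members, 15 were higher and 1 lower with phenylephrine (median 0.183), and 16 were higher and none lower with IGF1 (median 0.218). This count of 0 was the same at an unadjusted p under 0.05 in edgeR and by DESeq2 and limma-voom. By library size alone, the phenylephrine medians were -0.028 for the large and -0.011 for the small subunit. Members with a bacterial homologue had medians of 0.172 with phenylephrine and 0.214 with IGF1, over 39 genes. The 28 members classed as mitochondria-specific, Mrps18a and Mrps18b among them, had medians of 0.180 and 0.320. Without IGF1 replicate 1, the IGF1 medians were 0.173 with a bacterial homologue and 0.258 for the mitochondria-specific class. The order of the classes with IGF1 was opposite in the 2 subunits. With all samples, the large subunit medians were 0.348 for the mitochondria-specific class and 0.170 with a bacterial homologue. In the small subunit they were 0.111 and 0.232. The difference between the classes was not tested.

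Some members were followed for their roles whatever their change. Mrpl12, which forms the stalk that recruits translation factors and also binds the mitochondrial RNA polymerase, had 143, 146 and 146 CPM with phenylephrine, 213, 164 and 168 CPM with IGF1, and 118, 131 and 129 CPM with vehicle. Every treated sample lay above the vehicle samples, and IGF1 replicate 1 was far above the rest. The log2 fold change with phenylephrine was 0.20 (edgeR adjusted p = 0.074, and 1.7e-06 without IGF1 replicate 1). Mrpl10, at the base of that stalk, had log2 fold changes of 0.08 with phenylephrine and 0.11 with IGF1, neither past the test (edgeR adjusted p = 0.21 and 0.085). Mrpl45, which anchors the ribosome to the inner membrane at the exit of the nascent chain, had 68.4, 63.3 and 63.6 CPM with phenylephrine, 90.1, 73.8 and 79.7 CPM with IGF1, and 54.3, 56.8 and 60.1 CPM with vehicle. The 3 groups did not overlap, with IGF1 highest. Its log2 fold change was 0.19 with phenylephrine (edgeR adjusted p = 0.024) and 0.51 with IGF1 (adjusted p = 1.8e-05). The phenylephrine call was lost without vehicle replicate 1, vehicle replicate 2 or phenylephrine replicate 1 (edgeR adjusted p = 0.14, 0.087 and 0.11). Under library size scaling the value was -0.004.

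Mrpl3, a core protein of the large subunit, had log2 fold changes of -0.11 with phenylephrine and 0.06 with IGF1, neither past the test with all samples (edgeR adjusted p = 0.081 and 0.3). The fall with phenylephrine passed without IGF1 replicate 1 (adjusted p = 0.0096). Mrpl32, whose maturation by the inner-membrane m-AAA protease is known from yeast and mouse, had 0.02 and 0.18, neither past the test (edgeR adjusted p = 0.82 and 0.091). Mrps12, at the decoding site of the small subunit, rose by log2 0.24 with phenylephrine and 0.30 with IGF1 (edgeR adjusted p = 0.015 and 0.0043). That phenylephrine call ended when vehicle replicate 1, vehicle replicate 3 or the second phenylephrine sample was left out (edgeR adjusted p = 0.066, 0.059 and 0.078). Under library size scaling the value was 0.04 (adjusted p = 0.57). Mrps14, another small subunit protein with a bacterial homologue, rose by 0.29 with phenylephrine and 0.39 with IGF1 (edgeR adjusted p = 0.00012 and 1.1e-05). Mrps34, which is specific to mitochondria, rose by 0.33 and 0.36 (edgeR adjusted p = 0.0045 and 0.003). The phenylephrine calls of Mrps14 and Mrps34 were lost under library size scaling (adjusted p = 0.093 and 0.12). Mrps36 had 0.13 with phenylephrine, which passed the test without IGF1 replicate 1 but not with it (edgeR adjusted p = 0.0051 and 0.1).

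**Figure D4:**
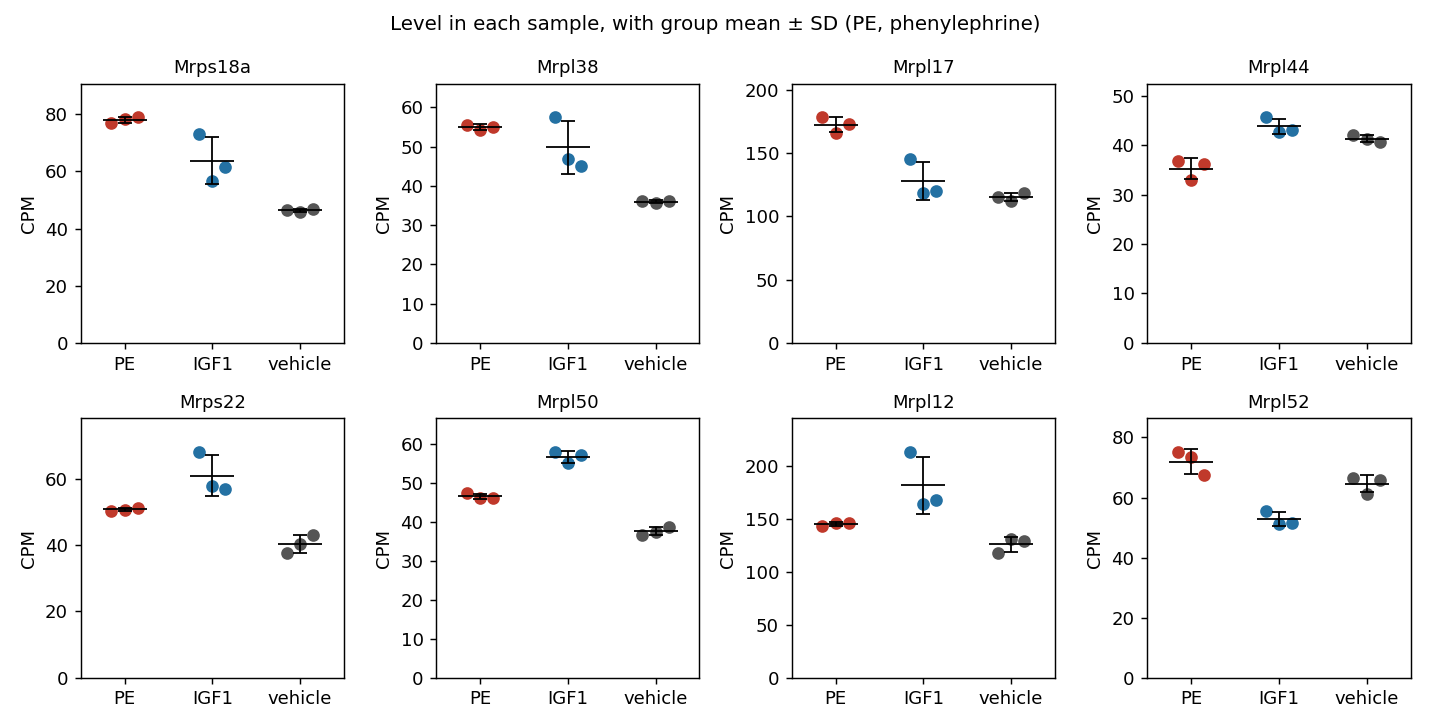
Level (TMM-scaled CPM, axis from 0) of 8 genes in each sample, by treatment, with bars for the group mean ± SD of 3 samples. Mrps18a, Mrpl38 and Mrpl17 are above vehicle with phenylephrine and Mrpl44 below it; Mrps22, Mrpl50 and Mrpl12 are highest with IGF1, and Mrpl52 is lowest with IGF1.

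The spread of the members within groups was set beside that of all genes. The median SD of log2 CPM over 3 samples was 0.047 with phenylephrine, 0.104 with IGF1 and 0.055 with vehicle, against 0.067, 0.106 and 0.063 for all genes tested. Mrpl30 was the most variable member with phenylephrine (SD 0.222) and with IGF1 (SD 0.518), and it rested on 43 to 75 reads per sample. Mrpl49 was the most variable with vehicle (SD 0.163). The other members with the largest SD were Mrpl1 and Mrpl32 with phenylephrine, Mrpl20 and Mrps34 with IGF1, and Mrpl32 and Mrpl21 with vehicle. As a description of likeness over the 9 samples, which share libraries and treatments, each member's log2 CPM was correlated with the mean of the others. The median r was 0.77, and 61 of the 68 members had r above 0. Mrps18c, the third relative of bacterial S18, was the most like the rest (r = 0.96). Mrpl34, Mrps26 and Mrpl52 were the least like the rest (r = -0.34, -0.31 and -0.27). Each of them was called lower under at least 1 treatment, which is no separate finding, since the treatment effects enter r.

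Other parts of the mitochondrial expression machinery were set beside the members from lists of genes. Their counts are to be read against all genes tested, of which 27.9% were higher and 28.9% lower with phenylephrine, and 24.7% and 23.4% with IGF1. Library size scaling changes this yardstick: for phenylephrine, 14.7% of all genes were then higher and 48.0% lower. For IGF1, 17.1% were higher and 30.4% lower under that scaling. Direct comparison of phenylephrine with IGF1 called 27.1% of genes in each direction, and by library size alone 18.0% higher and 36.8% lower. Counts without IGF1 replicate 1 belong with the shares given earlier for that setting. A list with shares near those of its own comparison and setting shows nothing particular to it.

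Of 6 ribosomal subunits carried under other symbols, 4 rose and none fell with phenylephrine, and 5 rose and none fell with IGF1. Each count of none among these lists was also 0 at an unadjusted p under 0.05 in edgeR, and by DESeq2 and limma-voom. Dap3, a small subunit GTP-binding protein, had 98.1 ± 0.994 CPM with phenylephrine, 86.2 ± 15.3 CPM with IGF1 and 58.3 ± 2.52 CPM with vehicle (SD, n = 3 each). Its log2 fold changes against vehicle were 0.75 with phenylephrine and 0.56 with IGF1 (edgeR adjusted p = 0.00018 and 0.0015), and 0.41 with IGF1 without replicate 1. Chchd1, another small subunit protein, rose by 0.46 and 0.43. Gadd45gip1, a large subunit protein also known as Crif1, rose by 0.15 with phenylephrine and 0.14 with IGF1 (edgeR adjusted p = 0.0097 and 0.015), and these were -0.04 and 0.06 with scaling by library size only, neither past the test. The list then had 2 higher and 1 lower with phenylephrine and 4 higher with IGF1. Ptcd3, a pentatricopeptide repeat protein of the small subunit, was lower with phenylephrine than with IGF1 (log2 -0.19). Mrp63, an older symbol of Mrpl57 that lies outside the naming pattern, had 22.7 ± 0.816 CPM with phenylephrine, 20.3 ± 0.833 CPM with IGF1 and 22.3 ± 1.20 CPM with vehicle, and passed the test against vehicle under neither treatment (edgeR adjusted p = 0.77 and 0.093). Without IGF1 replicate 1 the IGF1 value passed (log2 -0.17, adjusted p = 0.041), and library size scaling gave -0.17 with phenylephrine and -0.22 with IGF1, both past the test.

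Of 24 genes for ribosome assembly and ribosomal RNA modification, 5 rose and 6 fell with phenylephrine (median log2 -0.056), and 4 rose and 3 fell with IGF1 (median 0.091). Under library size scaling, 1 was higher and 12 lower with phenylephrine, and 2 were higher and 4 lower with IGF1 (median 0.008). Tfb1m, the methyltransferase of the small ribosomal RNA, rose by log2 0.54 with phenylephrine and 0.49 with IGF1. Fastkd2, an RNA-binding protein, rose by 0.39 with phenylephrine, a call lost under library size scaling (0.19, edgeR adjusted p = 0.074), and Ftsj2, an RNA methyltransferase, by 0.46 with IGF1. Mettl15, an RNA methyltransferase, and Rpusd3, a pseudouridine synthase family member, fell by 0.49 and 0.41 with phenylephrine. The GTPase Gtpbp10 fell by 0.28 and Ngrn by 0.21 with IGF1.

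Among 16 translation factors and associated genes, 5 rose and 3 fell with phenylephrine, and 7 rose and 1 fell with IGF1. Scaled by library size only, these were 3 and 8 with phenylephrine and 6 and 2 with IGF1. None of the 16 was higher and 7 were lower with phenylephrine than with IGF1 by edgeR, and 1 was higher without IGF1 replicate 1. Library size scaling gave 10 lower. The elongation factor Tufm had 217 ± 5.19 CPM with phenylephrine, 242 ± 15.2 CPM with IGF1 and 179 ± 5.99 CPM with vehicle, a rise of log2 0.27 with phenylephrine and 0.43 with IGF1. The elongation factor Gfm1 rose by 0.27 with phenylephrine and 0.58 with IGF1. The phenylephrine calls of Tufm and Gfm1 were lost under library size scaling (0.08 each, edgeR adjusted p = 0.075 and 0.12). Letm1, an inner membrane protein, rose by 0.48 and 0.44, and Slirp, a partner of Lrpprc in stabilising mitochondrial messenger RNA, by 0.40 and 0.51. Lrpprc itself had 0.06 with phenylephrine, which did not pass the test, and -0.13 under library size scaling, which did (edgeR adjusted p = 0.008). It rose by 0.32 with IGF1. The formyltransferase Mtfmt, which modifies the initiator, and the membrane insertase Oxa1l fell by 0.42 and 0.40 with phenylephrine. The ribosome recycling factor Mrrf fell by 0.23 with IGF1.

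Of 17 genes for mitochondrial aminoacyl-tRNA synthesis, 6 rose and 5 fell with phenylephrine (median log2 -0.017), whereas 12 rose and none fell with IGF1 (median 0.229). In the direct comparison 3 were higher and 12 lower with phenylephrine than with IGF1. By library size alone, 1 was higher and 8 lower with phenylephrine, 6 were higher and 1 lower with IGF1 (median 0.149), and the direct comparison had none higher and 13 lower. Cars2, the cysteine enzyme, had 11.3 ± 0.587 CPM with phenylephrine, 23.8 ± 1.25 CPM with IGF1 and 20.1 ± 1.18 CPM with vehicle, with log2 -1.08 between the treatments (edgeR adjusted p = 1.8e-08). Vars2 fell by 0.32 with phenylephrine, while Tars2 and Ears2 rose by 0.35 and 0.34. The call of Ears2 (edgeR adjusted p = 0.044) was lost under library size scaling (0.15, adjusted p = 0.38). With IGF1, Nars2 rose by 0.50 and Fars2 by 0.38.

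Of 15 genes for mitochondrial DNA maintenance and transcription, 3 rose and 4 fell with phenylephrine, and 4 rose and 2 fell with IGF1. Under library size scaling, these were 1 and 10 with phenylephrine and 3 and 4 with IGF1. Polrmt, the mitochondrial RNA polymerase, had 22.7 ± 1.62 CPM with phenylephrine, 32.6 ± 1.16 CPM with IGF1 and 36.2 ± 1.07 CPM with vehicle. It fell by log2 0.67 with phenylephrine and 0.15 with IGF1 (edgeR adjusted p = 3.8e-07 and 0.048), and the IGF1 call was lost without IGF1 replicate 1 (adjusted p = 0.056). Tfam, which packages mitochondrial DNA, rose by 0.17 with phenylephrine (edgeR adjusted p = 0.012), with -0.03 under scaling by library size only, and had -0.06 with IGF1, which did not pass the test. The IGF1 value passed as a fall without IGF1 replicate 1 (-0.13, edgeR adjusted p = 0.0074) and under library size scaling (-0.15, adjusted p = 0.0091). Trmt10c rose by 0.34 and Hsd17b10 fell by 0.41 with phenylephrine; the proteins of both genes belong to the complex that releases mitochondrial transfer RNAs. The RNA-processing genes Pnpt1 and Supv3l1 rose by 0.46 and 0.24 with IGF1, and the helicase Peo1, also known as Twinkle, fell by 0.15.

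Of 11 nuclear regulators of mitochondrial genes, 4 rose and 4 fell with phenylephrine, and none rose and 5 fell with IGF1. Scaled by library size only, 2 were higher and 5 lower with phenylephrine, and 6 were lower with IGF1. The transcription factor Myc had 44.2 ± 1.99 CPM with phenylephrine, 9.76 ± 2.29 CPM with IGF1 and 21.2 ± 1.32 CPM with vehicle, with log2 fold changes of 1.06 and -1.14 against vehicle (edgeR adjusted p = 1.1e-05 and 1.5e-05). The coactivator Ppargc1a had 56.6 ± 1.89 CPM with phenylephrine, 79.8 ± 7.81 CPM with IGF1 and 84.0 ± 4.99 CPM with vehicle. It fell by log2 0.57 with phenylephrine (edgeR adjusted p = 4.5e-06) and had -0.07 with IGF1, which did not pass the test. Its relative Pprc1 rose by 0.50 with phenylephrine. The transcription factor Nrf1 fell by 0.28 with phenylephrine and by 0.22 with IGF1.

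The nuclear-encoded subunits of the respiratory chain and ATP synthase, the complexes that also hold the products of mitochondrial ribosomes, had 75 of 76 rows tested. Of these, 25 rose and 7 fell with phenylephrine (median log2 0.100, and -0.094 with scaling by library size only, with 6 higher and 33 lower). With IGF1, 63 rose and none fell (median 0.299), and 58 were higher and 2 lower with scaling by library size only. In the direct comparison 2 were higher and 51 lower with phenylephrine than with IGF1 (median -0.193), without IGF1 replicate 1 these were 6 and 48, and with library size scaling 2 and 65. That replicate also bore on the phenylephrine count, which was 45 higher and 10 lower without it. Ndufb9 of complex I and Uqcrq of complex III had the largest rises with phenylephrine (log2 0.81 and 0.63), and Cox8b of complex IV and Ndufs7 of complex I were the lowest of those named (-0.67 and -0.19). With IGF1, Ndufs1 and Ndufa12 of complex I rose by 0.71 and 0.68. Atp5g1, which encodes the ring subunit of ATP synthase, had 309 ± 5.80 CPM with phenylephrine, 525 ± 70.1 CPM with IGF1 and 331 ± 14.9 CPM with vehicle, with log2 -0.77 between the treatments.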

How the data were processed

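RNA sequencing was done on 9 samples, 3 per treatment, from NuGEN Ovation libraries read on an Illumina NovaSeq instrument, per the labels' protocols. The deposited table holds a raw count of reads for each gene and sample, without normalization. CPM and fold changes were computed from it. STAR, HTSeq and DESeq with the rn5 build are named in the submitters' processing notes, without versions or roles. The sources used here do not state whether counting used strand, so genes that overlap (13 members in RefSeq's GRCr8 table) or have pseudogenes (23 members) are uncertain. The symbols of 67 members matched that table, and 1 matched by an older name. No gene lengths of the counted build were used, so levels are not compared between genes.

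Genes were filtered by filterByExpr (minimum count 10, minimum total 15), which left 11873 genes and all 68 members. Counts were scaled by TMM and fitted in edgeR 4.0.16 (R 4.3.3) with a robust quasi-likelihood model of the 3 groups. P-values were adjusted over all genes by the Benjamini-Hochberg method, with a threshold of 0.05; adjusted p-values are from this test where no other is named. The SE of a log2 fold change reflects the spread over all 9 samples. Levels are CPM, and SDs are over 3 samples. Groups came from the sample titles.

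The members and lists were chosen with earlier results of these data known. Members named were the 8 largest rises and falls past the threshold in each comparison, with values per sample for the first 4, a set of members and partner genes named whatever their change, up to 2 highest and 2 lowest of each list, the 3 most variable members per group and the 3 least like the rest. Alternatives were DESeq2 1.42.0, limma-voom (limma 3.58.1), other scalings, filters and thresholds, a fit to only the 2 groups in question, a block for replicate number and leaving out each sample. The procedure was tested on simulated data.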

Additional observations from a re-analysis of the deposited data

Results flagged for a closer look

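Mrpl52 differed between the treatments in direction. Its log2 fold change was 0.16 with phenylephrine and -0.29 with IGF1, both against the same vehicle samples, and the direct comparison of phenylephrine with IGF1 gave 0.451 (SE 0.054, edgeR adjusted p = 5.5e-06). All 3 phenylephrine samples lay above all 3 vehicle samples and all 3 IGF1 samples below them. The difference was 0.486 without IGF1 replicate 1. With scaling by library size only, the value for phenylephrine against vehicle was -0.038, so the opposite directions depend on the scaling. The direct comparison of phenylephrine with IGF1 then gave 0.341.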

How the results depend on the processing

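With scaling by library size only, phenylephrine against vehicle had 16 members higher, 18 lower and a median of -0.020. IGF1 had 3 lower, and phenylephrine against IGF1 had 40 lower and a median of -0.199. A fit of phenylephrine and vehicle alone gave 5 lower. Leaving out 1 sample at a time, phenylephrine had 25 to 46 members higher (25 without vehicle replicate 1, 46 without IGF1 replicate 1), 3 to 5 lower and a median of 0.146 to 0.175. IGF1 had 36 to 44 higher and 1 to 3 lower. For phenylephrine against IGF1, 9 to 17 members were higher and the median was -0.128 to -0.047. The cause was not tested. Over all alternatives, 1116 values of named members were compared, of which 1075 kept direction and call, 13 lost the call, 16 gained it and 12 changed sign. Many of these members were named for the largest changes past the threshold, so these counts do not speak for the other members. Of all 35 members called higher with phenylephrine, 16 kept the call under library size scaling. Under library size scaling, the sign changed for Mrpl10 (-0.114), Mrpl32 (-0.169), Mrpl45 (-0.004) and Mrps36 (-0.062) with phenylephrine and for Mrpl3 (-0.020) and Mrpl44 (-0.002) with IGF1. Leaving out 1 sample, Mrpl32 with phenylephrine ran from -0.063 to 0.110, with a changed sign without vehicle replicate 1, vehicle replicate 2 or phenylephrine replicate 1. Between phenylephrine and IGF1, Mrpl10 (-0.077 to 0.021), Mrps12 (-0.112 to 0.038) and Mrps34 (-0.128 to 0.088) changed sign without IGF1 replicate 1.

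Samples with the same replicate number did not deviate together (r = -0.073 to 0.023 over 9 pairs). This gave no sign of pairing by number, though such a check can miss a pairing. With the replicate block, 33 members were higher and 3 lower with phenylephrine, 43 and 1 with IGF1, and 11 and 22 for phenylephrine against IGF1. Mrpl30 had the fewest reads of the members, with 43 to 75 per sample. RefSeq names 9 pseudogenes for it, and whether these bear on its count was not tested.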
